A study of Mus musculus with 49 samples.

Results

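The 9 genes Slc17a7, Cux1, Cux2, Rorb, Fezf2, Bcl11b, Etv1, Foxp2 and Tbr1 mark excitatory neurons of the neocortex and the layers in which they lie. They were taken from the count table by symbol, in a choice made with earlier results of these data known. All 9, of 45252 genes in the table, had enough reads to be tested among 18220 genes. RNA came from the neocortex of 49 mice on a mixed C57BL/6J and C3H/HeJ background, each mouse giving 1 library. In bigenic rNLS8 mice a transactivator under the NEFH promoter, which is active in neurons with much neurofilament heavy chain, drives a human TDP-43 that lacks the nuclear localization signal (hTDP43ΔNLS) once doxycycline is removed from the diet. The ctrl-PBS group had 17 monogenic mice that carried only tetO-hTDP43ΔNLS and received PBS (10 females and 7 males). The TDP-PBS group had 10 bigenic mice that received PBS (4 females and 6 males). The TDP-10+12 group had 10 bigenic mice given the TDP-43 peptides 10 and 12 together (6 females and 4 males), and the TDP-15 group had 12 bigenic mice given peptide 15 (5 females and 7 males). All mice started the vaccination scheme at 8 weeks of age, with 5 injections before and 1 after induction. The immunized groups received a total of 40 µg of peptide coupled to ovalbumin each time, and the PBS groups received PBS in its place. All mice lost doxycycline at 25.5 weeks and were killed at 28.5 weeks, so every bigenic mouse had expressed the transgene for 3 weeks.

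Excitatory neurons of the neocortex load glutamate into vesicles with the transporter VGLUT1, which Slc17a7 encodes, and project to other cortical areas or to targets below the cortex according to their layer. Homeobox and nuclear receptor genes mark the upper layers, while zinc finger, ETS, forkhead and T-box transcription factors mark the deep layers from which the corticospinal and corticothalamic axons leave. Layer 5 holds the large neurons of the corticospinal tract, which degenerate in amyotrophic lateral sclerosis.

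Against ctrl-PBS, Etv1 and Fezf2, both marks of layer 5, were the members with the largest falls in every bigenic group. Etv1 fell by 33.2% in TDP-PBS, fell by 25.1% in TDP-10+12 and fell by 34.5% in TDP-15. Fezf2 fell by 26.5%, fell by 26.3% and fell by 24.9% in the same groups. Cux2 fell in all 3 groups, Cux1, Rorb, Bcl11b and Tbr1 passed the test in 1 or 2 of them, and Slc17a7 and Foxp2 passed it in 0. No member differed between bigenic groups at an adjusted p-value under 0.05.

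Depth was even, with 17775738 to 21033608 counts per mouse (median 19955601), and every member was counted in every mouse, from 150 counts for Foxp2 in the lowest mouse to 42396 for Slc17a7 in the highest. Levels are in CPM, that is counts scaled to libraries of equal size after TMM correction, and a gene was called when its adjusted p-value in edgeR's quasi-likelihood test over all 18220 genes was under 0.05. Differences are on the log2 scale, each with its standard error (SE) or 95% interval. Tardbp, the mouse TDP-43 gene, was lower in each bigenic group, with a median of 147 CPM in ctrl-PBS and 120, 122 and 119 CPM in TDP-PBS, TDP-10+12 and TDP-15. All 32 bigenic mice lay below the ctrl-PBS median of Tardbp. Whether reads of the human transgene count towards Tardbp was not stated, so its level checks the labels only in part. Nefh, whose promoter drives the transactivator, had medians of 84.0, 69.4, 62.0 and 67.2 CPM in ctrl-PBS, TDP-PBS, TDP-10+12 and TDP-15 and fell in all 3 bigenic groups. In bulk tissue, fewer cells of a type and less RNA per cell cannot be told apart.

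The positions below are those of GENCODE vM21 on GRCm38. Slc17a7 lies at chr7:45163949-45176142 on the plus strand, Cux1 at chr5:136248135-136567490 and Cux2 at chr5:121856366-122050102, both on the minus strand. Rorb (chr19:18930605-19111196), Fezf2 (chr14:12342094-12348189) and Bcl11b (chr12:107910403-108003602) are on the minus strand too. Etv1 (chr12:38779380-38870484), Foxp2 (chr6:14901349-15441977) and Tbr1 (chr2:61802930-61814114) are on the plus strand. Cux1 shares 394 exon bases with the antisense gene Gm16599, which is also in the table, so its reads cannot be told from those of Gm16599 if strand was not used in counting. No other member shares exon bases with another gene.

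Promoter sequences were read from RefSeq for GRCm38.p6, which gave an entry for 8 of the 9 members. The 250 bases before the start of Etv1, the member with the largest fall in TDP-PBS and TDP-15, are shown with those of Slc17a7, which was not called in any group. The choice of these members was made after their values were seen. Both windows are on the plus strand, at chr12:38779832-38780081 for Etv1 and chr7:45163671-45163920 for Slc17a7, and capitals mark GGGCGG or its reverse complement.
Etv1: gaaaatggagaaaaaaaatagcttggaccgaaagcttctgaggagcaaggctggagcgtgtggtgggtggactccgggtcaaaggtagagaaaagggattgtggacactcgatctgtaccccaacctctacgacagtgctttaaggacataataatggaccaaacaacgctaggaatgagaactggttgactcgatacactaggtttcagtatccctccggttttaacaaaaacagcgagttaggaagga
Slc17a7: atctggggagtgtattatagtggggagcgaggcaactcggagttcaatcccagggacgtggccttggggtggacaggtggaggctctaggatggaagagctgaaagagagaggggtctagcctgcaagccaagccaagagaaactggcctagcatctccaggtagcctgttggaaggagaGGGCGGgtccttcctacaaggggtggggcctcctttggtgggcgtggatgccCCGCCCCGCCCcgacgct
The Etv1 window was 46.4% G and C and the Slc17a7 window 61.2%, against a median of 52.4% over 32851 promoter windows of this length. GGGCGG was searched on both strands and found 3 times before Slc17a7, 2 of these matches overlapping, and 0 times before Etv1. It occurred in 32.7% of all windows. TATAAA and CCAAT were in neither window and in 12.4% and 33.8% of all windows, while CANNTG occurred 1 time before Slc17a7, 0 times before Etv1 and in 66.2% of all windows. The Etv1 window lies inside the GENCODE model of Etv1, which starts further upstream. These matches describe the letters only.

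Per kilobase of exon, Slc17a7 had by far the highest level in ctrl-PBS, at 346 ± 37.1 CPM per kb (SD, n = 17). Tbr1 followed at 31.1 ± 3.52, Fezf2 at 18.7 ± 3.31 and Cux2 at 16.9 ± 2.13 CPM per kb. Bcl11b stood at 11.4 ± 1.97, Etv1 at 6.91 ± 0.954 and Cux1 at 4.79 ± 0.453 CPM per kb. Rorb at 3.00 ± 0.477 and Foxp2 at 1.15 ± 0.320 CPM per kb were the lowest. Of neighbours in this order, only Fezf2 and Cux2 lay within 1 SD of each other. The exon length covers every annotated isoform, so genes with many unused exons are placed too low.

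**Figure D1:**
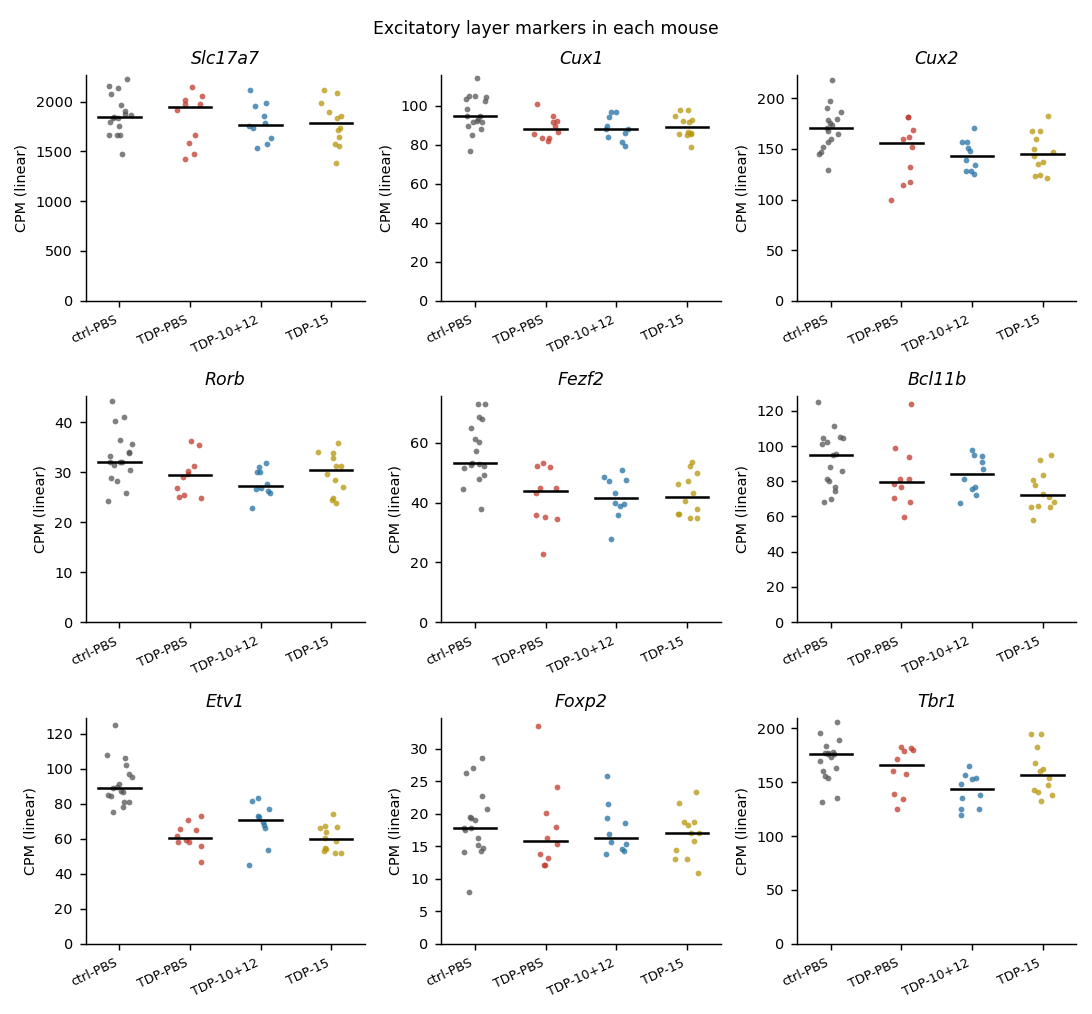
CPM of the 9 members (vertical axes, from 0) in each mouse (points) of ctrl-PBS, TDP-PBS, TDP-10+12 and TDP-15 (horizontal axis), with a bar at each group's median. All TDP-PBS and TDP-15 mice lie below all ctrl-PBS mice for Etv1, and the groups overlap for the other 8 genes.

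The share of members called is set here beside the share of all genes. In TDP-PBS 4 of 9 members were lower and 0 higher, where 21.6% of all genes tested were lower and 21.9% higher. In TDP-10+12 6 of 9 were lower and 0 higher, against 20% and 20.8% of all genes. In TDP-15 4 of 9 were lower and 0 higher, against 23.2% and 23.6% of all genes. The median log2 fold change of the 9 members was −0.15, −0.25 and −0.16 in TDP-PBS, TDP-10+12 and TDP-15, where the median of all genes was 0.00 in each. All 9 members had a negative sign in each comparison with TMM scaling, whereas scaling to the summed count of 15 pan-neuronal genes turned 5, 4 and 4 of them positive. That scaling moved the median of all genes by 0.15, 0.16 and 0.16, and the share of all calls that were higher from 50.4%, 51.0% and 50.5% to 81.0%, 83.4% and 81.1%. Relative to the median of all genes, the members' median was then −0.15, −0.24 and −0.16. The 3 comparisons share the 17 ctrl-PBS mice, so a similar result in each is not independent.

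**Figure D2:**
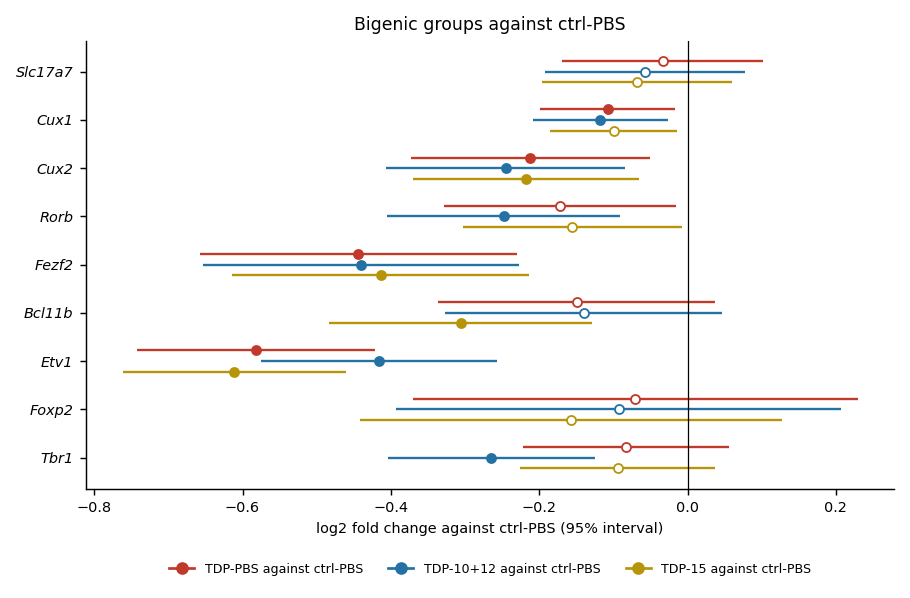
Log2 fold change of each member (rows) in TDP-PBS, TDP-10+12 and TDP-15 against ctrl-PBS, with 95% intervals; filled points passed an adjusted p-value of 0.05 and open points did not. Etv1 and Fezf2 lie farthest below 0 in each group, and the Slc17a7 and Foxp2 intervals include 0 in each.

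Slc17a7, the vesicular glutamate transporter of cortical excitatory neurons, ranged from 1472 to 2230 CPM in ctrl-PBS (median 1849). It ranged from 1421 to 2144 CPM in TDP-PBS (median 1945), 1532 to 2118 in TDP-10+12 (median 1770.2) and 1379 to 2117 in TDP-15 (median 1784). The groups overlapped nearly throughout, and 17 of 32 bigenic mice lay below the ctrl-PBS median. Its log2 fold change was −0.03 in TDP-PBS (95% interval −0.17 to 0.10), −0.06 in TDP-10+12 (−0.19 to 0.08) and −0.07 in TDP-15 (−0.20 to 0.06), none past the test. Scaled to the pan-neuronal list, which raised the median of all genes by 0.15, the value in TDP-PBS was 0.11 (adjusted p 0.0480, edgeR), below that median.

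Cux1 and Cux2 are cut-like homeobox genes of the upper layers. Cux2 ranged from 129.55 to 218 CPM around a median of 171 in ctrl-PBS, from 99.8 to 182 in TDP-PBS (median 156), 125 to 170.3 in TDP-10+12 (median 143) and 121 to 182 in TDP-15 (median 145). In each bigenic group 3 mice lay below every ctrl-PBS mouse, and 29 of 32 lay below the ctrl-PBS median. Cux2 fell by 0.21 on the log2 scale in TDP-PBS (SE 0.08, adjusted p 0.0276), by 0.25 in TDP-10+12 (adjusted p 0.0115) and by 0.22 in TDP-15 (adjusted p 0.0151, edgeR). The call in TDP-PBS was lost without TDP-PBS mouse 26 (adjusted p 0.114), 91 (0.0961), 217 (0.0927) or 270 (0.0708), or without ctrl-PBS mouse 71 (0.0576). With the pan-neuronal scaling the adjusted p was 0.442, 0.328 and 0.502 in the 3 groups. In female mice alone it was 0.682, 0.0791 and 0.0662, and in male mice alone 0.0503, 0.148 and 0.126. In TDP-PBS it was also 0.0556 with no filter on low counts and 0.0571 with only the compared groups fitted. Without the mouse of highest striatal marker sum in each group it was 0.0964 there (edgeR).

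Cux1 ranged from 77.0 to 114 CPM in ctrl-PBS (median 94.5), and its medians were 88.2 CPM in TDP-PBS, 88.1 in TDP-10+12 and 89.0 in TDP-15. No bigenic mouse lay outside the ctrl-PBS range. It fell by 0.11 on the log2 scale in TDP-PBS (SE 0.05, adjusted p 0.0491, edgeR) and by 0.12 in TDP-10+12 (adjusted p 0.0331), and gave −0.10 in TDP-15 (adjusted p 0.0512). These values sit at the threshold, since leaving out 1 mouse at a time ended the call in TDP-PBS for 37 of the 49 mice and in TDP-10+12 for 22, and made a call in TDP-15 for 9. With the pan-neuronal scaling the values were 0.05, 0.04 and 0.06. The TDP-PBS call held in only 3 of the 13 other settings tried. It was lost with DESeq2 (adjusted p 0.0634) and limma-voom (adjusted p 0.0574). In edgeR it was lost with RLE factors (0.0544), upper-quartile factors (0.0686) and at least 10 counts in every mouse (0.0646), among others.

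Rorb encodes a nuclear receptor of layer 4. It ranged from 24.2 to 44.2 CPM around a median of 32.1 in ctrl-PBS, from 24.8 to 36.3 in TDP-PBS (median 29.4), 22.8 to 31.96 in TDP-10+12 (median 27.3) and 24.0 to 35.8 in TDP-15 (median 30.4). Every TDP-10+12 mouse lay below the ctrl-PBS median, though only 1 lay below every ctrl-PBS mouse. Rorb fell by 0.25 on the log2 scale in TDP-10+12 (SE 0.08, adjusted p 0.00855). This call was lost with the pan-neuronal scaling (−0.084, adjusted p 0.352) and in female mice alone (−0.14, adjusted p 0.282). It gave −0.17 in TDP-PBS (adjusted p 0.0690) and −0.16 in TDP-15 (adjusted p 0.0784, edgeR). The TDP-PBS value passed the test without TDP-PBS mouse 42 (adjusted p 0.0387) or 196 (0.0445) or ctrl-PBS mouse 280 (0.0305) or 343 (0.0388). The TDP-15 value passed it without TDP-15 mouse 214 (adjusted p 0.0415) or ctrl-PBS mouse 280 (0.0342) or 343 (0.0434).

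Etv1, an ETS transcription factor of layer 5 pyramidal neurons, separated the genotypes most sharply of the members. It ranged from 75.2 to 125 CPM around a median of 89.2 in ctrl-PBS, from 46.8 to 73.2 in TDP-PBS (median 60.4), 45.2 to 83.5 in TDP-10+12 (median 70.9) and 51.7 to 74.4 in TDP-15 (median 59.5). All 10 TDP-PBS and all 12 TDP-15 mice lay below every ctrl-PBS mouse, as did 7 of 10 TDP-10+12 mice. Among all genes tested, 2.58% in TDP-PBS, 2.59% in TDP-10+12 and 3.08% in TDP-15 had every mouse below every ctrl-PBS mouse, and Etv1 was the only member with such a separation, in TDP-PBS and TDP-15. Its log2 fold change was −0.58 in TDP-PBS (SE 0.08, adjusted p 2.97e-08), −0.42 in TDP-10+12 (SE 0.08, adjusted p 2.25e-05) and −0.61 in TDP-15 (SE 0.08, adjusted p 1.60e-09, edgeR). The call held in all 3 groups under the 13 other settings tried and with each mouse left out.

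Fezf2 encodes a zinc finger factor that specifies subcerebral projection neurons, and Bcl11b (CTIP2) encodes one that acts in the same neurons. Fezf2 ranged from 37.7 to 73.1 CPM around a median of 53.1 in ctrl-PBS, from 22.8 to 53.4 in TDP-PBS (median 44.0), 27.8 to 50.8 in TDP-10+12 (median 41.6) and 34.8 to 53.5 in TDP-15 (median 41.7). Of the 32 bigenic mice 30 lay below the ctrl-PBS median and 11 below every ctrl-PBS mouse. It fell by 0.44 on the log2 scale in TDP-PBS (SE 0.11, adjusted p 0.000542), 0.44 in TDP-10+12 (adjusted p 0.000639) and 0.41 in TDP-15 (adjusted p 0.000521, edgeR). These calls held with each mouse left out and were lost only in the fit of male mice alone, where the adjusted p was 0.1000, 0.213 and 0.121.

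Bcl11b ranged from 68.5 to 125 CPM around a median of 94.9 in ctrl-PBS, from 59.7 to 124 in TDP-PBS (median 79.7), 67.5 to 97.6 in TDP-10+12 (median 84.1) and 58.1 to 94.7 in TDP-15 (median 72.1). In TDP-15 5 of 12 mice lay below every ctrl-PBS mouse, against 2 of 10 in TDP-PBS and 1 of 10 in TDP-10+12. Bcl11b fell by 0.31 on the log2 scale in TDP-15 (SE 0.09, adjusted p 0.00348). This call was lost with the pan-neuronal scaling (−0.15, adjusted p 0.227) and in female mice alone (−0.24, adjusted p 0.162). It gave −0.15 in TDP-PBS (adjusted p 0.197) and −0.14 in TDP-10+12 (adjusted p 0.234, edgeR). Without TDP-PBS mouse 217, the highest of its group at 124 CPM, the value in TDP-PBS was −0.22 (adjusted p 0.0451). The difference between TDP-15 and TDP-PBS was −0.16 (95% interval −0.36 to 0.04) and did not pass the test. From mouse to mouse Bcl11b also followed the summed level of 11 striatal genes, described below (r = 0.82 in ctrl-PBS and 0.90 in bigenic mice).

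Tbr1, a T-box factor of layer 6 corticothalamic neurons, ranged from 132 to 206 CPM around a median of 176 in ctrl-PBS, from 125 to 183 in TDP-PBS (median 166), 119 to 165 in TDP-10+12 (median 144) and 133 to 195 in TDP-15 (median 157). In TDP-10+12 all 10 mice lay below the ctrl-PBS median and 3 below every ctrl-PBS mouse. Tbr1 fell by 0.26 on the log2 scale in TDP-10+12 (SE 0.07, adjusted p 0.00170), and gave −0.08 in TDP-PBS (adjusted p 0.347) and −0.09 in TDP-15 (adjusted p 0.244, edgeR). With the pan-neuronal scaling it gave −0.10 in TDP-10+12 (adjusted p 0.151) and positive values in the other 2 groups. The TDP-10+12 call was also lost in male mice alone (−0.24, adjusted p 0.146, edgeR).

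Foxp2, a forkhead factor of layer 6 neurons that medium spiny neurons of the striatum express too, was the lowest and most variable member. It ranged from 7.90 to 28.5 CPM around a median of 17.9 in ctrl-PBS, from 12.1 to 33.6 in TDP-PBS (median 15.8), 13.8 to 25.8 in TDP-10+12 (median 16.3) and 10.9 to 23.4 in TDP-15 (median 17.0). No bigenic mouse lay below every ctrl-PBS mouse, and TDP-PBS mouse 217 lay above all of them. The log2 fold changes were −0.07 (95% interval −0.37 to 0.23), −0.09 (−0.39 to 0.21) and −0.16 (−0.44 to 0.13) in TDP-PBS, TDP-10+12 and TDP-15. Intervals of this width leave room for a change of the size seen in Cux2.

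Between bigenic groups, 0 of 9 members and 0% of the 18220 genes were called in each of the 3 comparisons by edgeR, and DESeq2 called 0, 0 and 2 genes, none of them a member. Without adjustment, a p-value under 0.05 was reached by 1, 0 and 2 members and by 953, 552 and 1244 genes in TDP-10+12 against TDP-PBS, TDP-15 against TDP-PBS and TDP-10+12 against TDP-15. Tbr1 was −0.18 in TDP-10+12 against TDP-PBS (95% interval −0.34 to −0.03, adjusted p 0.926). In TDP-10+12 against TDP-15 Tbr1 was −0.17 (−0.32 to −0.02, adjusted p 0.658) and Etv1 0.19 (0.03 to 0.36, adjusted p 0.658, edgeR). Etv1 was 0.17 in TDP-10+12 against TDP-PBS (−0.01 to 0.34). The 95% intervals of the 9 members ran from −0.36 to 0.34 in TDP-10+12 against TDP-PBS, from −0.41 to 0.26 in TDP-15 against TDP-PBS and from −0.32 to 0.39 in TDP-10+12 against TDP-15. The widest intervals were those of Foxp2 and the narrowest those of Cux1, at −0.11 to 0.09, −0.09 to 0.11 and −0.12 to 0.08. A member past the test in 1 bigenic group against ctrl-PBS was not shown to differ from another bigenic group.

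**Figure D3:**
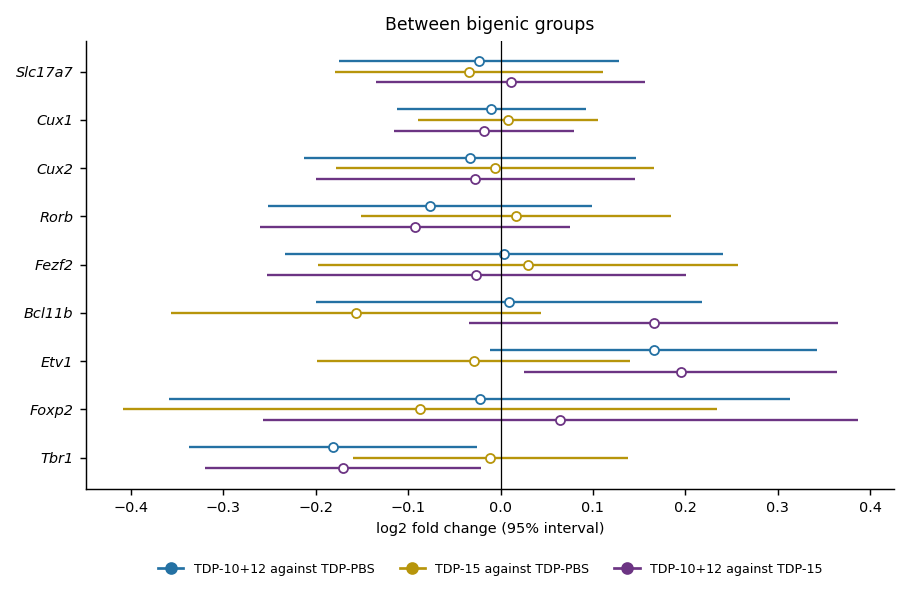
Log2 fold change of each member (rows) between bigenic groups, with 95% intervals; all points are open because none passed an adjusted p-value of 0.05. The intervals of Tbr1 in TDP-10+12 against both other groups and of Etv1 in TDP-10+12 against TDP-15 leave out 0.

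Within the PBS-treated mice, the genotype effect was compared between sexes by an interaction term. Cux1 gave 0.02 in females and −0.25 in males, a difference of −0.26 (SE 0.08) with an unadjusted p of 0.00415 and an adjusted p of 0.747 in edgeR. The other 8 members had adjusted p-values of 0.812 or more, and 0% of 18589 genes were called. Etv1 was −0.51 in females and −0.60 in males.

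Each layer marker was also set against Slc17a7, which is shared by the VGLUT1 neurons of all layers. The level of Etv1 was 4.96% of that of Slc17a7 in the median ctrl-PBS mouse, 3.35% in TDP-PBS, 3.97% in TDP-10+12 and 3.59% in TDP-15. The TDP-PBS median was thus 67.6% of that of ctrl-PBS, and 75.5% with the pan-neuronal list in place of Slc17a7. The ratio of Fezf2 to Slc17a7 was 3.04% in ctrl-PBS and stood at 74.8%, 80.2% and 80.1% of this in TDP-PBS, TDP-10+12 and TDP-15. The same figures were 78.4%, 92.1% and 75.9% for Bcl11b and 78.0%, 83.4% and 92.6% for Foxp2. They were 91.2%, 88.5% and 91.3% for Cux2 and 96.1%, 84.5% and 96.1% for Tbr1. Cux1 gave 89.7%, 91.8% and 96.0%, and Rorb 90.1%, 85.6% and 96.7%. With the pan-neuronal list in place of Slc17a7, the TDP-PBS figures were 89.2% for Bcl11b and 92.3% for Foxp2, against 84.2% for Fezf2. Between TDP-PBS mice, the SD of the ratio to Slc17a7 was 44.5% of its median for Bcl11b. It was 68.0% for Foxp2 and 12.6% for Fezf2. These ratios have no test of their own.

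Dissected cortex can carry pieces of neighbouring tissue, so marker lists of those tissues were summed in each mouse. The 11 striatal genes, led by the dopamine receptors Drd1 and Drd2 and the phosphodiesterase Pde10a, summed to 386 to 1976 CPM in ctrl-PBS mice, with a median of 1259, and 717 to 2259 in TDP-PBS (median 957). They summed to 689.7 to 1798 CPM in TDP-10+12 (median 988) and 556 to 1351 in TDP-15 (median 923). No gene of the list was called in TDP-PBS or TDP-10+12, and 4 of 11 were lower in TDP-15, with a median of −0.40. The striatal sum thus varied widely between mice of a group.

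Across the 17 ctrl-PBS mice Bcl11b followed the striatal sum with Pearson's r = 0.82 (permutation p 6e-05, adjusted p 0.00105) and Spearman's rho = 0.91 (permutation p 1e-05, the smallest the 100000 permutations can give). In the 32 bigenic mice, each centred on its group, r was 0.90 and rho 0.91 (both permutation p 1e-05, adjusted p 0.000112). Foxp2 gave r = 0.93 and rho = 0.89 in ctrl-PBS and r = 0.90 and rho = 0.89 in bigenic mice (all permutation p 1e-05). These 4 relations held without the 2 mice farthest from the median of the striatal sum, where r lay between 0.83 and 0.87. Slc17a7 ran the other way, with r = −0.67 in ctrl-PBS (permutation p 0.00359, adjusted p 0.0201), where rho was −0.55 (adjusted p 0.0953), and r = −0.76 and rho = −0.72 in bigenic mice (permutation p 2e-05 and 3e-05). Etv1 showed r = −0.14 in ctrl-PBS (permutation p 0.585), where rho was −0.06 (permutation p 0.819). In bigenic mice Etv1 gave r = −0.43 (permutation p 0.0153, adjusted p 0.0286), rho = −0.35 (permutation p 0.0527, adjusted p 0.0948) and r = −0.34 without the 2 farthest mice. There were 45 relations in each set, and adjustment was over these. All values of a mouse come from 1 library and 1 scale, so a higher share of one tissue lowers the share of another.

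**Figure D4:**
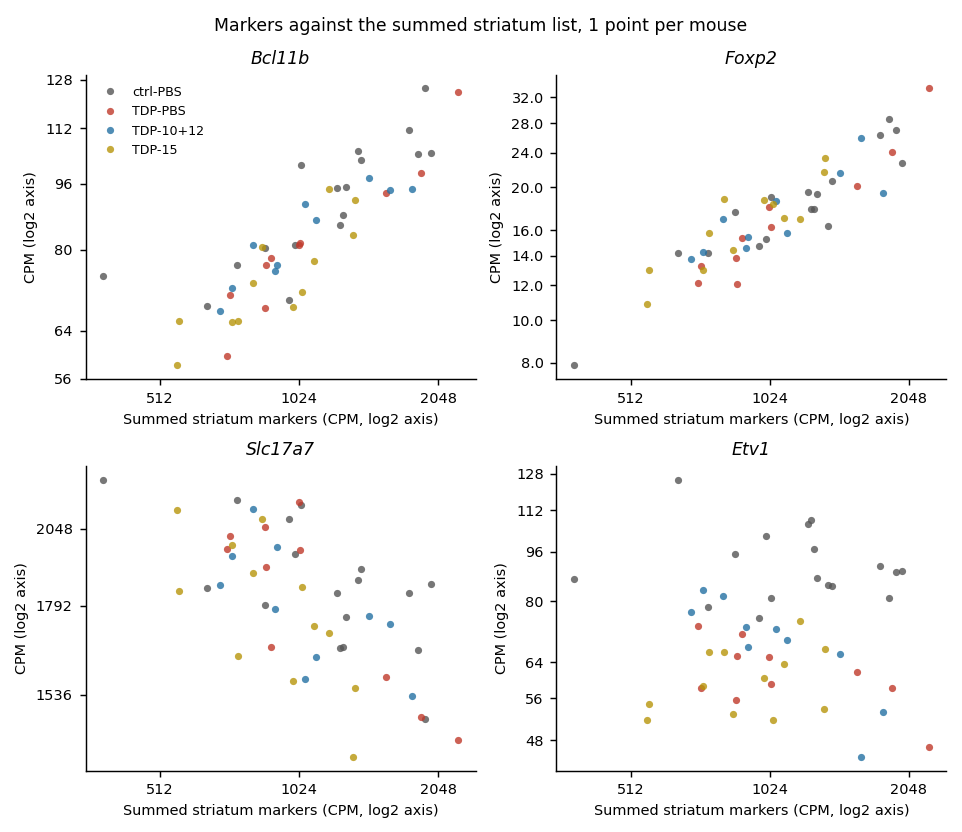
Bcl11b, Foxp2, Slc17a7 and Etv1 (vertical axes, CPM on a log2 scale) against the summed CPM of the 11 striatal genes (horizontal axes, log2 scale) in the 49 mice, coloured by group. Bcl11b and Foxp2 climb with the striatal sum in all groups, Slc17a7 declines, and for Etv1 the ctrl-PBS mice lie above all but 3 of the 32 bigenic mice.

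With the striatal sum as a covariate, an alternative chosen after seeing the data, Etv1 was −0.59, −0.44 and −0.65 in TDP-PBS, TDP-10+12 and TDP-15 and Fezf2 −0.48, −0.47 and −0.51. Without it they were −0.58, −0.42 and −0.61 for Etv1 and −0.44, −0.44 and −0.41 for Fezf2. The sum comes from the same libraries, and the part of striatal tissue in these falls was not tested. Bcl11b was −0.14 in TDP-PBS (adjusted p 0.0203), −0.09 in TDP-10+12 (adjusted p 0.137) and −0.17 in TDP-15 (adjusted p 0.00233, edgeR), where it had been −0.31. In TDP-15 the covariate brought Slc17a7 (−0.15, adjusted p 0.00884), Rorb (−0.20, adjusted p 0.0179) and Tbr1 (−0.17, adjusted p 0.0116) past the test, and the number of members called was 6, 6 and 7 in place of 4, 6 and 4. All these calls were lower, as were 4013, 3766 and 4255 of 18220 genes. Leaving out the mouse with the highest striatal sum of each group gave 3, 5 and 4 members called, all lower. Here 3768, 3442 and 4132 of 18248 genes were lower. The mice left out were ctrl-PBS 322, TDP-PBS 217, TDP-10+12 200 and TDP-15 254, and this setting was also chosen after seeing the data.

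Lists of other neighbouring tissues moved less evenly. The 8 thalamic genes tested had 2 higher and 2 lower in TDP-PBS, 1 and 3 in TDP-10+12 and 2 and 3 in TDP-15, and summed to 125 to 204 CPM over all mice. The 8 hippocampal genes had 1 higher and 3 lower, 4 and 1, and 2 and 3, and summed to 214 to 422 CPM, the highest value in TDP-10+12 mouse 301. The 8 olfactory bulb genes had 4 lower in TDP-PBS, 1 higher in TDP-10+12 and 0 called in TDP-15, and summed to 13.1 to 253 CPM, the highest value in ctrl-PBS mouse 280. The 7 choroid plexus genes had 0, 5 and 1 higher and summed to 13.4 to 1715 CPM. Mouse 280 had the lowest Slc17a7, Cux2, Rorb, Fezf2 and Tbr1 of ctrl-PBS, and mouse 301 the lowest Cux1, Cux2, Rorb, Fezf2 and Etv1 of TDP-10+12. The part of these tissues in the members' differences was not tested.

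Within groups, several members rose and fell together from mouse to mouse, and others ran opposite to each other. Of 36 pairs, 17 passed an adjusted p of 0.05 by permutation in the bigenic mice, 9 positive and 8 negative, and 8 in ctrl-PBS, 4 positive and 4 negative, of which 2 did so by rank as well. Bcl11b and Foxp2 went together (r = 0.79 and rho = 0.84 in ctrl-PBS, permutation p 7e-05 and 6e-05), and r = 0.86 and rho = 0.83 in bigenic mice (permutation p 1e-05). Tbr1 and Fezf2 went together too (r = 0.74, rho = 0.68 in ctrl-PBS, permutation p 0.00062 and 0.00367), with r = 0.62 and rho = 0.65 in bigenic mice (permutation p 0.00036 and 0.00028). Without the 2 farthest mice these 4 values of r were 0.81, 0.80, 0.65 and 0.59. The 8 negative pairs in bigenic mice were those of Bcl11b and of Foxp2 with Slc17a7, Cux2, Fezf2 and Tbr1. Bcl11b and Fezf2 ran opposite ways (r = −0.61 in ctrl-PBS and −0.64 in bigenic mice, permutation p 0.00907 and 0.00034). Foxp2 and Tbr1 did so in bigenic mice (r = −0.60, permutation p 0.00063), with r = −0.31 in ctrl-PBS (permutation p 0.231). Etv1 passed the threshold with no other member in either set of mice.

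The genes most like each member over the 49 mice with group means removed were sought among all genes tested. Bcl11b was closest to the adenylyl cyclase gene Adcy5 (r = 0.90), the retinoic acid receptor gene Rarb (0.90) and Pde10a (0.89), and Foxp2 to the signalling regulator Rgs9 (0.93), Drd1 (0.93) and Pde10a (0.92). Rarb, Rgs9, Drd1 and Pde10a are genes of the striatal list. Tbr1 was close to C77080 (0.84) and Nfix (0.81), and Fezf2 to Nfix (0.78), Ldb2 (0.77) and Dnm1 (0.77). Slc17a7 was closest to Lrfn1 (0.85), Nsmf (0.83) and Syn1 (0.83), and Cux2 to Ctnnd2 (0.80), Clstn1 (0.78) and Gabbr2 (0.78), several of them synaptic genes. Etv1 was closest to Gm5454 (0.79), L3mbtl1 (0.68) and Snhg11 (0.67). Rorb, with Hsdl1 (0.63), Mapk10 (0.60) and Tbc1d30 (0.60), and Cux1, with Ttc39a (0.65), Casp4 (0.58) and Adgrf5 (0.58), had the weakest likenesses. All points share the libraries and their scaling.

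Other genes of the same layers gave a wider view. Of 15 further layer 5 genes tested, 13 were lower in TDP-PBS, 9 in TDP-10+12 and 13 in TDP-15, and 0 were higher, with medians of −0.46, −0.40 and −0.44. Parm1 lay at 46.3 to 73.9 CPM in ctrl-PBS, 22.8 to 37.8 in TDP-PBS, 26.8 to 42.8 in TDP-10+12 and 23.9 to 34.7 in TDP-15. Every mouse of each bigenic group lay below every ctrl-PBS mouse. This held for 2.58%, 2.59% and 3.08% of all genes in TDP-PBS, TDP-10+12 and TDP-15. Parm1, chosen as the largest fall of its list in TDP-PBS, fell there by 0.84 on the log2 scale (adjusted p 4.82e-13, edgeR). In the same comparison the calcium-binding regulator Pcp4 fell by 0.74 (adjusted p 2.84e-08) and Deptor, an inhibitor of mTOR, by 0.50 (adjusted p 4.97e-07, edgeR). Ldb2 (−0.06) and Sulf2 (0.06) did not pass the test in TDP-PBS.

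Of 16 further upper-layer genes, 8, 8 and 9 were lower in TDP-PBS, TDP-10+12 and TDP-15 and 0 were higher, with medians of −0.32, −0.27 and −0.35. Otof lay at 23.2 to 65.4 CPM in ctrl-PBS and 16.0 to 39.9 in TDP-PBS, and fell by 0.62 (adjusted p 0.00260, edgeR). Of 14 further layer 6 genes, 5, 3 and 4 were lower and 0, 1 and 1 higher, with medians of −0.15, −0.03 and −0.13. Rprm, a cell cycle inhibitor that also marks layer 6 neurons, lay at 23.4 to 33.2 CPM in ctrl-PBS. It lay at 8.43 to 16.4 CPM in TDP-PBS, 6.78 to 21.2 in TDP-10+12 and 8.99 to 14.3 in TDP-15, so no bigenic group overlapped ctrl-PBS. Such a separation downward was found in 2.58%, 2.59% and 3.08% of all genes. Rprm fell by 1.29 in TDP-PBS (adjusted p 1.60e-13, edgeR). In TDP-PBS, layer 6 therefore held both the uncalled Foxp2 and Tbr1 and a gene with a larger fall than any member. Nxph4, a neurexophilin of the deepest layer, was the layer 6 gene that rose, by 0.88 in TDP-10+12 (adjusted p 6.01e-05) and 0.44 in TDP-15 (adjusted p 0.0329, edgeR).

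Among 12 other genes of excitatory neurons, 8, 9 and 8 were lower and 1, 0 and 1 higher in TDP-PBS, TDP-10+12 and TDP-15, with medians of −0.43, −0.41 and −0.50. Tafa1 fell by 0.97 in TDP-PBS (adjusted p 3.83e-08), the postsynaptic calmodulin-binding gene Nrgn by 0.81 (adjusted p 3.00e-12) and the kinase gene Camk2a by 0.52 (adjusted p 1.79e-08, edgeR). Slc17a7 was thus not called while most other genes of the same neurons were lower.

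Among 15 pan-neuronal genes, 8 were lower in each group and 2, 3 and 1 higher, with medians of −0.21, −0.14 and −0.20. The synaptic vesicle fusion gene Snap25 fell by 0.68 in TDP-PBS (adjusted p 5.14e-18) and Thy1 rose by 0.38 (adjusted p 1.20e-09, edgeR). Of 14 interneuron genes, 6, 8 and 9 were lower and 1 higher in each group. Lamp5, which upper-layer excitatory neurons express too, fell by 1.51 in TDP-PBS (adjusted p 8.31e-19) and Lhx6 rose by 0.22 (adjusted p 0.000628, edgeR).

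Of 10 microglial genes 8 were higher in each group, with medians of 0.49, 0.39 and 0.47, and 0, 1 and 1 were lower. C1qb rose by 1.06 in TDP-PBS (adjusted p 9.74e-09, edgeR). The summed microglial level was 288 to 344 CPM in ctrl-PBS, 387 to 574 in TDP-PBS, 290.1 to 519 in TDP-10+12 and 311 to 745 in TDP-15. Of 10 astrocyte genes 1 was higher in each group, Gfap at 1.64 in TDP-PBS (adjusted p 9.88e-11), and 2, 2 and 4 were lower. Oligodendrocyte genes had 1, 0 and 1 of 10 higher and 0 lower, precursor genes 0, 2 and 0 of 7 higher and 1, 0 and 1 lower, and endothelial genes 2, 0 and 1 of 9 higher and 2, 1 and 3 lower. The part of these shifts in the members' falls was not tested.

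**Figure D5:**
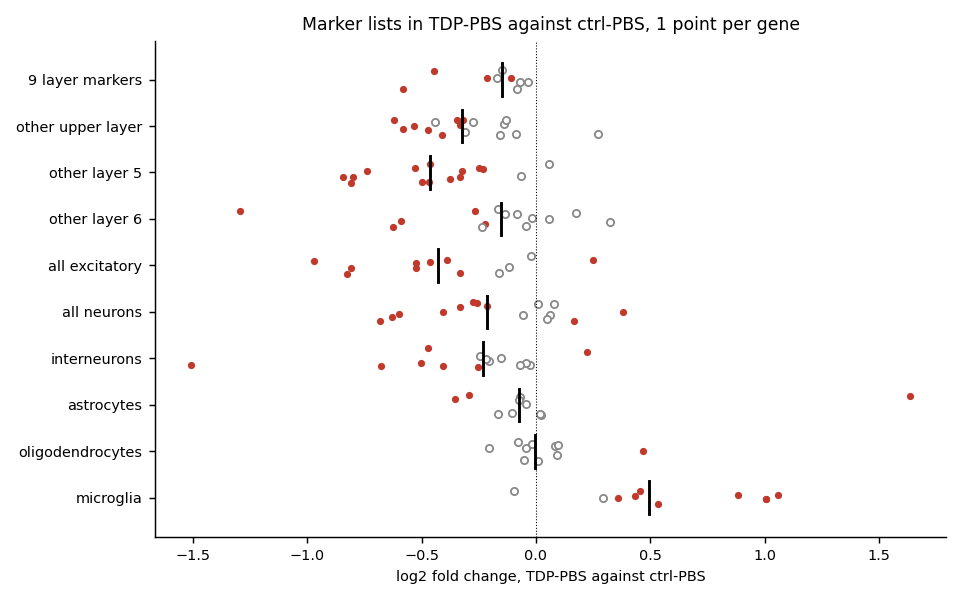
Log2 fold change in TDP-PBS against ctrl-PBS (horizontal axis) of each gene (points) of 10 marker lists (rows), with filled red points for genes past an adjusted p-value of 0.05 and a bar at each list's median. The members and the other layer lists lie mainly below 0 and the microglial genes mainly above it.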

How the data were processed

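RNA from about 30 mg of neocortex per mouse (200 ng, 100 bp paired-end reads) was sequenced for 49 mice by the authors. The deposited table holds unnormalized read counts for each gene, from reads they aligned to GRCm38.p6. The submitters' processing notes name HISAT, HISAT2, Bowtie, Bowtie2, RSEM and mm10, with no version. The strand setting of the counting was not given in the sources used here.

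Groups and sexes came from the sample labels. Any 2 mice of a group differed with a chi-squared of at least 7.77 for each degree of freedom, so no library was a copy of another of its group. Mice of different groups were not compared in this way. Counts were filtered with filterByExpr by group (minimum count 10, minimum total 15). After TMM scaling all 49 mice entered 1 model without covariates, by edgeR's quasi-likelihood test (edgeR 4.0.16, limma 3.58.1, DESeq2 1.42.0, R 4.3.3, common dispersion 0.0263), two-sided, with Benjamini-Hochberg adjustment over 18220 genes. Correlations used log2 CPM (prior count 2) and 100000 permutations. Drawing used matplotlib 3.10.9 and Python 3.11.15. The fit was tested on simulated counts.

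The members, gene lists and rules were chosen with earlier results of these data known. Genes named beside the members were, in each list, the largest change in each direction that passed the test, and for each member the 3 genes most like it. The values of 1 gene that these rules would name are not reported here. Deptor, Pcp4, Ldb2, Sulf2, Nrgn and Camk2a were named after their values were seen. The lists were other upper-layer, layer 5 and layer 6 genes, excitatory, pan-neuronal, interneuron, astrocyte, microglial, oligodendrocyte, precursor, endothelial, striatal, thalamic, hippocampal, olfactory bulb and choroid plexus genes. Alternatives were other size factors, filters and tools, sex as a covariate, single sexes, fits of 2 groups and each mouse left out. No paired analysis was possible because the labels give no litter or other link between mice of different groups.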

Additional observations from a re-analysis of the deposited data

How the results depend on the processing

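Over 13 other settings, the counts of members called against ctrl-PBS (4, 6 and 4 in TDP-PBS, TDP-10+12 and TDP-15) were recomputed. Brackets give how many of all genes tested were called, in either direction. In TDP-PBS the counts were 2 with no filter on low counts (7769 of 39179) and 2 with only the compared groups fitted (7668 of 17363). They were 2 in female mice (5578 of 18623), 2 in male mice (4487 of 18540) and 6 with the striatal covariate (8078 of 18220). RLE and upper-quartile size factors each gave 3 there, all lower, where 3905 and 3864 of 18220 genes were lower. Pan-neuronal scaling gave 3 as well, of which 2 were lower and 1, Slc17a7, was higher. Of all 18220 genes, 1720 were then lower and 7319 higher. In TDP-10+12 the counts were 2 with pan-neuronal scaling (9041 of 18220), 3 in female mice (6020 of 18623) and 3 in male mice (2987 of 18540). In TDP-15 they were 2 with pan-neuronal scaling (9686 of 18220), 2 in female mice (5962 of 18623) and 7 with the striatal covariate (8605 of 18220). Fits of a single sex or of the compared groups hold fewer mice by construction, and for the other settings the cause was not tested. With 1 mouse left out the counts ran from 2 to 5, 5 to 6 and 4 to 6. In TDP-PBS the count was 2 without TDP-PBS mouse 26 (7926 of 18326), 91 (7933 of 18333) or 270 (7696 of 18333). It was also 2 without ctrl-PBS mouse 71 (7860 of 18208). No member was called between bigenic groups under any of these settings. Etv1 kept its call against ctrl-PBS in all of them, with adjusted p-values up to 0.000940, 0.0147 and 8.61e-05 in the 3 groups (edgeR, DESeq2 or limma-voom).

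Signs changed in 22 values against ctrl-PBS and 30 between bigenic groups, of which 3 concerned a called value, all of Cux1. The pan-neuronal scaling, which raises the median of all genes by 0.15 to 0.16, accounts for 13 of the 22 and for 2 of these 3. Scaled to the pan-neuronal list, log2 fold changes in TDP-PBS were Slc17a7 0.11, Cux1 0.047, Bcl11b 0.0070, Foxp2 0.085 and Tbr1 0.067. In TDP-10+12 they were Slc17a7 0.11, Cux1 0.044, Bcl11b 0.018 and Foxp2 0.060, and in TDP-15 Slc17a7 0.096, Cux1 0.065, Rorb 0.011 and Tbr1 0.069. Female mice gave Slc17a7 0.013, Cux1 0.032 and Tbr1 0.045 in TDP-PBS and Cux1 0.028 in TDP-15. Male mice gave Foxp2 0.049 in TDP-PBS and Foxp2 0.11 in TDP-10+12. The striatal covariate gave Foxp2 0.016 in TDP-10+12 and Foxp2 0.096 in TDP-15, and leaving out the 4 mice of highest striatal sum gave Slc17a7 0.0011 in TDP-PBS.

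Between TDP-10+12 and TDP-PBS, sex as a covariate gave Fezf2 −0.00072, limma-voom Foxp2 0.024, females Fezf2 −0.0029 and Foxp2 0.0068, and males Slc17a7 0.047, Cux2 0.030 and Foxp2 0.058. The striatal covariate gave Foxp2 0.060 there, and leaving out the 4 mice Cux1 0.0047, Fezf2 −0.058 and Foxp2 0.11. Between TDP-15 and TDP-PBS, pan-neuronal scaling gave Cux2 0.012 and Tbr1 0.0012, limma-voom Cux2 0.0100, females Cux1 −0.0042, Rorb −0.0053 and Foxp2 0.090, and males Cux2 0.091 and Tbr1 0.085. The striatal covariate gave Rorb −0.019, Fezf2 −0.037 and Foxp2 0.14 there, and leaving out the 4 mice Fezf2 −0.017 and Foxp2 0.0094. Between TDP-10+12 and TDP-15, females gave Slc17a7 −0.0087, Cux2 0.020 and Foxp2 −0.083, and the striatal covariate Cux2 0.029, Fezf2 0.039 and Foxp2 −0.080.

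With 1 mouse left out, 18 values changed sign at least once. In TDP-PBS against ctrl-PBS the range was −0.062 to 0.012 for Slc17a7. In TDP-10+12 against TDP-PBS the ranges were −0.058 to 0.0049 for Slc17a7, −0.026 to 0.012 for Cux1, −0.084 to 0.0057 for Cux2, −0.067 to 0.056 for Fezf2, −0.035 to 0.090 for Bcl11b and −0.10 to 0.13 for Foxp2. In TDP-15 against TDP-PBS they were −0.0050 to 0.029 for Cux1, −0.058 to 0.032 for Cux2, −0.0100 to 0.053 for Rorb, −0.043 to 0.074 for Fezf2, −0.067 to 0.0021 for Etv1, −0.14 to 0.061 for Foxp2 and −0.048 to 0.011 for Tbr1. In TDP-10+12 against TDP-15 they were −0.018 to 0.036 for Slc17a7, −0.056 to 0.0053 for Cux2, −0.059 to 0.028 for Fezf2 and −0.012 to 0.12 for Foxp2. With the pan-neuronal list in place of Slc17a7, the ratio relative to ctrl-PBS was 105% for Cux1 and 96.2% for Cux2 in TDP-10+12, and 84.2% for Fezf2 and 108% for Tbr1 in TDP-PBS. Depth was close in all mice and limits these values little.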
